A study of Mus musculus with 21 samples.

Results

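The conversion of mouse embryonic stem cells of the line A2 from the ground state to early primitive ectoderm-like (EPL) cells was followed in 6 RNA-seq libraries, 3 of A2 ground cells and 3 of A2 EPL cells, out of 21 in the series. The libraries were chosen by their labelled line and stage, and every gene tested was compared. The series placed A2 and D3, embryonic stem cell lines from the inner cell mass of the mouse blastocyst, at successive stages of pluripotency, and the comparison asks which genes change when ground-state cells become EPL cells. Ground-state cells were grown in DMEM with 10% fetal bovine serum, 1000 U/mL of leukaemia inhibitory factor (LIF) and the inhibitors of MEK and GSK3 known as 2i. EPL cells were ground-state cells cultured for 4 days in DMEM with 10% serum, 330 U/mL LIF and 400 uM L-proline, with no inhibitor listed. Another A2 stage, naive cells, came from withdrawal of 2i for 4 days, and its values are given beside some genes. The inhibitors, the LIF dose and L-proline all differ between the ground and EPL media, so what each contributed cannot be told apart. The labels name no genetic change in A2 and do not say whether the 3 libraries of a stage came from separate cultures. P-values therefore measure the spread between libraries within groups, pooled over all 21 libraries of the series, and that spread may be technical.

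LIF acts through JAK kinases and STAT3 to sustain naive pluripotency genes. The MEK inhibitor of 2i blocks the ERK kinase cascade that fibroblast growth factors activate, and the GSK3 inhibitor stabilises beta-catenin and so mimics Wnt signalling. L-proline drives embryonic stem cells towards a state like the primitive ectoderm, the epithelium of the early post-implantation embryo that gives rise to the germ layers, and formation of that epithelium is marked by Fgf5 and by retained Pou5f1.

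Total counts were 18824044 to 22286752 per library in A2 ground and 16600682 to 18115933 in A2 EPL, and 19563 to 20301 genes had a count in a library of either group. The first principal component of the 6 libraries held 84% of the variance and separated the groups, with ground libraries between -70.39 and -66.83 and EPL libraries between 65.32 and 72.47. The median SD of a gene's log2 level between libraries was 0.111 in ground and 0.14 in EPL. EPL replicate 1 stood apart from EPL replicates 2 and 3. The chi-square per degree of freedom of its counts was 11.75 and 10.7 against them, and 2.913 between replicates 2 and 3. Between ground libraries it was 4.952 to 12.33, highest between replicates 2 and 3. Mitochondrially encoded transcripts took 1.82% to 3.351% of the counts in ground libraries and 1.328% to 1.87% in EPL libraries. Levels below are CPM, a gene's counts relative to the TMM-scaled library total, in the order of replicates 1, 2 and 3, and changes are log2 fold changes, EPL over ground, with a standard error (SE).

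Of 16575 genes tested with edgeR's quasi-likelihood test, 9084 (54.8%) changed at an adjusted p below 0.05. The 4504 genes that rose were 27.2% of those tested and the 4580 that fell were 27.6%, and the median change of all genes was close to 0. At least 2-fold changes were called for 2205 genes that rose (13.3%) and 1566 that fell (9.45%). At 4-fold the counts were 1063 and 635, at 16-fold 227 and 128, and at 64-fold 44 and 30, so rises outnumbered falls among the large changes. For 10387 genes (62.7%) the 3 EPL libraries did not overlap the 3 ground libraries, and 8767 of these were called. Among long intergenic RNAs, 78 of 266 rose and 40 fell, whereas among 14577 protein-coding genes 28.7% rose and 29.7% fell. Since most genes were called, each gene group below is read against these shares.

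**Figure D1:**
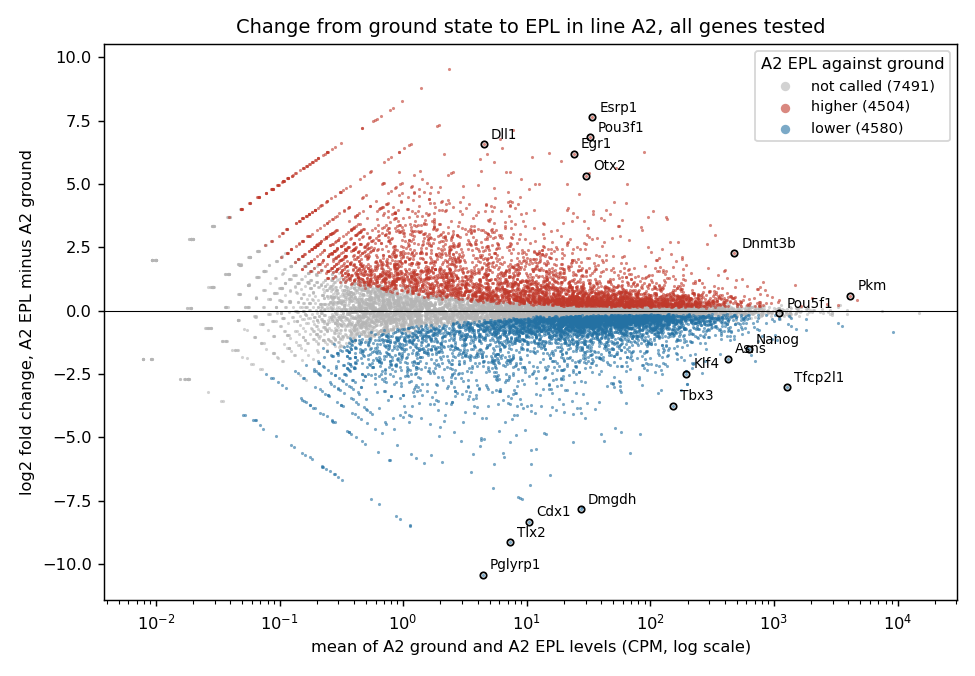
Log2 fold change from A2 ground to A2 EPL (vertical axis) against the mean level of the 2 groups in CPM (horizontal log axis) for the 16575 genes tested; red points rose, blue points fell and grey points did not pass the test. Esrp1 and Pou3f1 sit near the top at changes of 7.64 and 6.84, Tfcp2l1 lies far to the right with a change of -3.02, and Pou5f1 lies near 0; the diagonal rows at the left are genes with few counts, whose fitted changes depend on the prior count.

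Most naive pluripotency factors fell and the formative genes rose. Of 20 genes of the naive network tested, 1 rose, 15 fell and 4 did not pass the test, with a median change of -0.54. Tfcp2l1 (chr1:118627945-118685168 on GRCm38), a transcription factor downstream of LIF, was at 2326, 2162 and 2309 CPM in ground and 297, 290.4 and 249.8 CPM in EPL (log2 fold change -3.02 ± 0.141 SE, edgeR adjusted p = 4.01e-14). Tbx3, a T-box factor that maintains self-renewal, was at 288, 275 and 292 CPM in ground and 21.8, 20.04 and 21.7 CPM in EPL (log2 fold change -3.75 ± 0.0859 SE, edgeR adjusted p = 4.93e-19). Klf4, a direct STAT3 target, was at 348, 298 and 342 CPM in ground and 50.9, 62.5 and 63.4 CPM in EPL (log2 fold change -2.48 ± 0.106 SE, edgeR adjusted p = 1.07e-14). For these 3 genes every EPL library lay below every ground library. Prdm14, which represses FGF receptor signalling and DNA methyltransferases, fell by 1.96 on the log2 scale, and Spp1, which encodes osteopontin, fell by 1.69. Esrrb, an orphan nuclear receptor at the core of the network, was at 1072, 925 and 1091 CPM in ground and 528, 426 and 413 CPM in EPL (log2 fold change -1.18 ± 0.108 SE, edgeR adjusted p = 4.38e-09). Zfp42, also called Rex1, was at 1113, 1158 and 1157 CPM in ground and 860.3, 859.8 and 905 CPM in EPL and changed by -0.39 ± 0.0913 (adjusted p = 0.00108 with edgeR). The fall of Zfp42 was thus small beside those of Tfcp2l1 and Tbx3, although its libraries did not overlap either.

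The exceptions within this group were Gbx2, a homeobox factor, which rose with overlapping libraries (27.4 ± 3.27 to 40.6 ± 10.3 CPM, mean ± SD, n = 3), and Dppa3, Klf2, Nr0b1 and Sox15, which did not pass the test. Klf2 was at 246, 216 and 239 CPM in ground and 221, 206 and 189 CPM in EPL, with a change of -0.19 ± 0.126. With only the A2 libraries compared it was called lower (-0.17, edgeR adjusted p = 0.0464). The Krüppel-like factors therefore spanned changes from -2.48 for Klf4 and -0.46 for Klf5 to -0.19 for Klf2.

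Among 15 general pluripotency factors, which are active in naive and primed cells alike, 10 rose, 1 fell and 4 did not pass the test. Without ground replicate 2 or EPL replicate 2, 2 and 3 members were called lower. Pou5f1, which encodes OCT4, was at 1103, 1131 and 1193 CPM in ground and 1109.5, 1033 and 1080.2 CPM in EPL and did not pass the test (log2 fold change -0.089 ± 0.102 SE, edgeR adjusted p = 0.487). Sox2, its partner on DNA, was at 432, 413 and 452 CPM in ground and 479.7, 471 and 459.7 CPM in EPL (log2 fold change 0.12 ± 0.0720 SE, edgeR adjusted p = 0.166). Nanog, a homeobox factor, was the member that fell, from 906, 939.5 and 942 CPM to 340.1, 313 and 322 CPM (log2 fold change -1.52 ± 0.0857 SE, edgeR adjusted p = 1.13e-12). The libraries of Pou5f1 overlapped between groups. Those of Sox2 were close, with every EPL library above every ground library, while those of Nanog stood far apart. With total-count scaling Sox2 was called higher (0.18, edgeR adjusted p = 0.0287). Lin28a, an RNA-binding protein that blocks maturation of let-7 microRNAs, was at 71.2, 68.8 and 85.0 CPM in ground and 599, 614 and 578 CPM in EPL (log2 fold change 2.99 ± 0.0829 SE, edgeR adjusted p = 8.37e-18), and its paralogue Lin28b rose by 2.43. Dppa2 and Dppa4, small chromatin proteins that act as a pair, rose by 1.39 and 1.71, and Utf1 rose by 1.69. In these bulk libraries, fewer cells with a transcript and less transcript per cell cannot be told apart.

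All 15 formative epiblast genes tested rose, with a median change of 3.66. This list was written with knowledge of earlier results of these data and describes, rather than tests, the direction. Pou3f1 (chr4:124656807-124660655), a POU factor of the post-implantation epiblast, was at 0.331, 0.718 and 0.652 CPM in ground and 68.3, 66.9 and 58.5 CPM in EPL (log2 fold change 6.84 ± 0.212 SE, edgeR adjusted p = 4.50e-17). Otx2, which redirects OCT4 to new enhancers, was at 1.09, 1.66 and 1.69 CPM in ground and 57.9, 62.0 and 57.6 CPM in EPL (log2 fold change 5.33 ± 0.147 SE, edgeR adjusted p = 8.33e-18). Fgf5, the ligand that marks the primitive ectoderm, was at 0.189, 0.0553 and 0.0544 CPM in ground and 5.31, 3.63 and 4.59 CPM in EPL (log2 fold change 5.35 ± 0.478 SE, edgeR adjusted p = 2.57e-09). Fgf15, another FGF of the epiblast, was at 0.236, 0.166 and 0.489 CPM in ground and 14.2, 13.5 and 12.2 CPM in EPL (log2 fold change 5.47 ± 0.235 SE, edgeR adjusted p = 1.14e-14). The libraries of these 4 genes did not overlap, and the change of Fgf5 rests on 6 counts over the ground libraries. Sox11, Sox3 and Sox4, SOX-family factors of neural and epiblast progenitors, rose by 4.07, 3.66 and 3.45. Grhl2, an epithelial transcription factor, rose by 3.70, and the smallest changes of the group were those of Sall1 (0.38) and Tead2 (0.91).

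Genes of the primed epiblast and primitive streak went both ways, as did all genes tested (27.2% higher and 27.6% lower). Of 14 tested, 5 rose, 5 fell and 4 did not pass the test. Cldn6, a tight junction claudin, was at 4.16, 2.87 and 4.02 CPM in ground and 51.6, 40.7 and 35.5 CPM in EPL (log2 fold change 3.52 ± 0.155 SE, edgeR adjusted p = 1.61e-14). Car4, a carbonic anhydrase, had no count in the ground libraries and 244 in EPL, where it was at 6.02, 5.03 and 3.14 CPM, at least 91.2-fold higher when set against 3 counts over the ground group. In contrast, Nkx1-2 and Sp5 fell by 7.35 and 3.90 on the log2 scale, and Eomes, Gsc and T (Brachyury), factors of the mesendoderm, were lower as well. T was at 2.32, 1.49 and 1.30 CPM in ground and 0.0591, 0.447 and 0.181 CPM in EPL (log2 fold change -2.85 ± 0.437 SE, edgeR adjusted p = 8.11e-06), and Eomes was at 10.3, 10.3 and 12.1 CPM in ground and 2.24, 2.23 and 2.66 CPM in EPL (log2 fold change -2.19 ± 0.189 SE, edgeR adjusted p = 1.43e-09). T and Gsc were near or under 2 CPM in both groups, so ground-state cells held more of these streak transcripts than EPL cells, at low levels. With the 6 A2 libraries alone in the fit, where the filter kept fewer genes (14552), 3 rather than 5 members of this group were called higher.

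**Figure D2:**
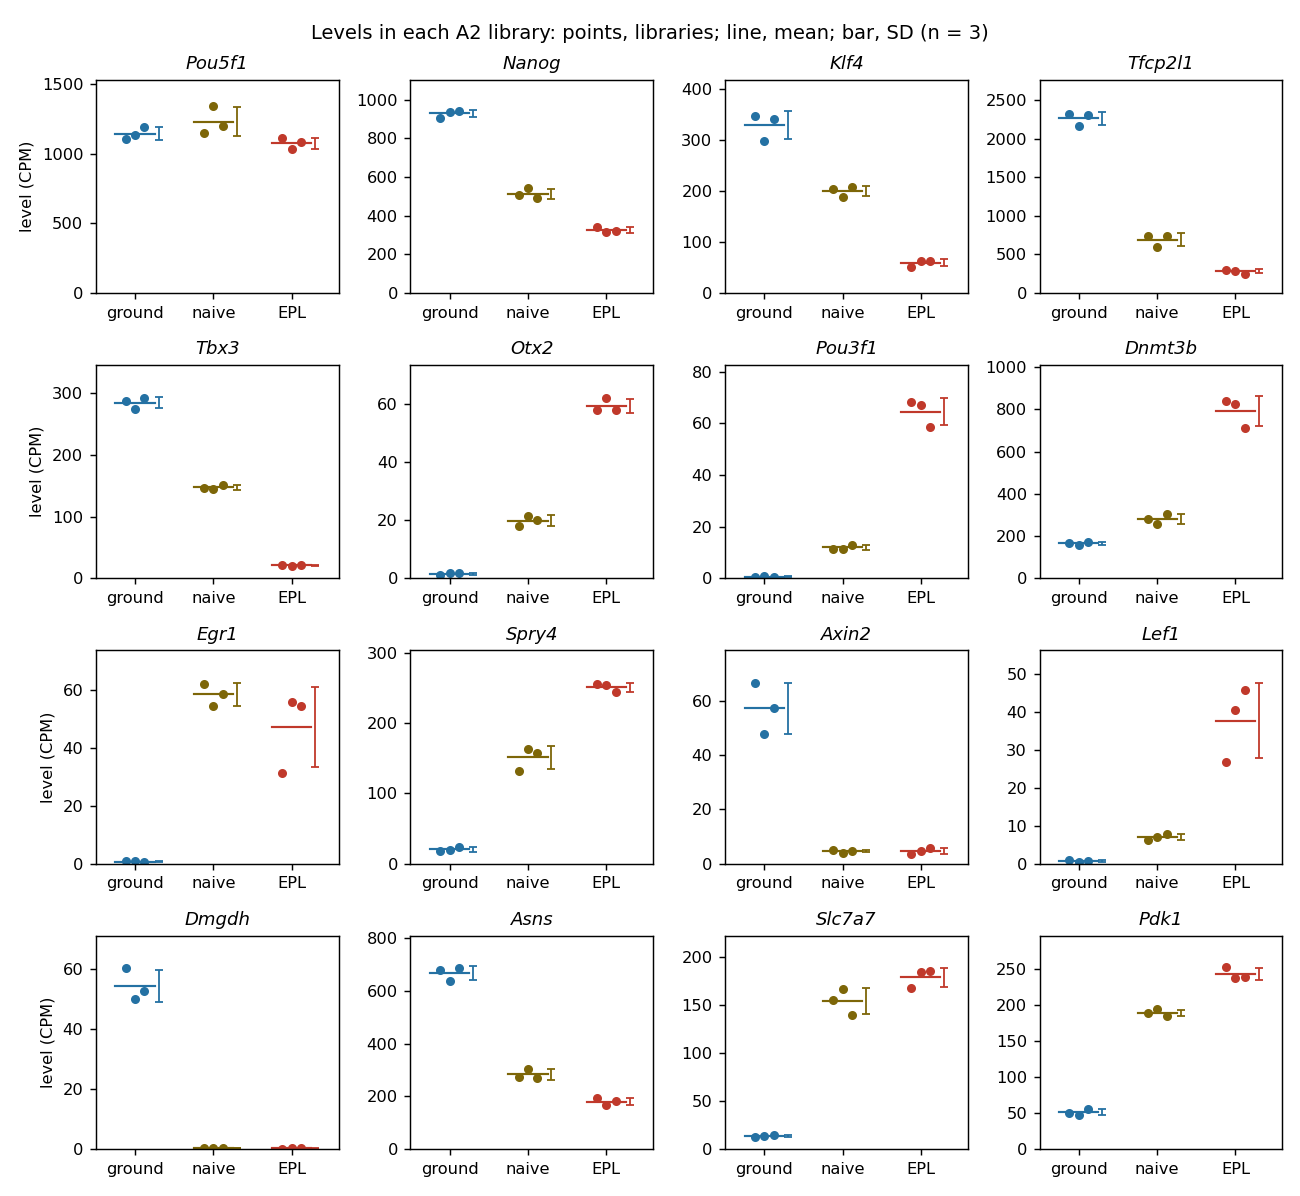
Levels in CPM (vertical axes, starting at 0) of 16 genes in each of the 3 A2 ground, A2 naive and A2 EPL libraries; points are libraries, the line is the mean and the bar the SD. Pou5f1 has similar levels in the 3 groups, Tfcp2l1 and Tbx3 drop, Pou3f1 and Otx2 climb to above 50 CPM in EPL, and Axin2 and Dmgdh are low in both naive and EPL cells.

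Genes that respond to ERK rose more often than they fell. The immediate early genes, which ERK induces through serum response factor and ternary complex factors, counted 8 that rose, 3 that fell and 7 that did not pass the test among 18. Egr1, a zinc finger factor, was at 0.757, 0.774 and 0.380 CPM in ground and 31.4, 56.1 and 54.4 CPM in EPL (log2 fold change 6.19 ± 0.281 SE, edgeR adjusted p = 2.75e-14). All 3 EPL libraries were far above the ground libraries. Egr2 had no count in ground and 10 in EPL, at least 3.74-fold higher. Myc was at 16.6, 17.8 and 17.3 CPM in ground and 105, 131 and 119 CPM in EPL (log2 fold change 2.78 ± 0.101 SE, edgeR adjusted p = 7.37e-16), Mycn rose by 1.09, and Mycl fell by 2.03 on the log2 scale. The direction thus differed within the Myc family. Fos, the prototype of this class, was at 2.08, 2.04 and 1.69 CPM in ground and 1.59, 1.79 and 2.90 CPM in EPL (log2 fold change 0.10 ± 0.262 SE, edgeR adjusted p = 0.764). Jun and Srf also did not pass the test, with changes of 0.31 ± 0.188 and -0.077 ± 0.0840.

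Of 14 ERK feedback regulators, 10 rose, 1 fell and 3 did not pass the test, with a median of 0.83. Spry4, a Sprouty protein that damps receptor signalling, was at 18.1, 18.7 and 23.7 CPM in ground and 256, 254 and 244 CPM in EPL (log2 fold change 3.64 ± 0.119 SE, edgeR adjusted p = 1.03e-16). Dusp4 and Dusp6 encode phosphatases of ERK. Dusp4 was at 1.80, 2.04 and 2.39 CPM in ground and 65.9, 45.2 and 40.3 CPM in EPL (log2 fold change 4.60 ± 0.233 SE, edgeR adjusted p = 1.60e-13), and Dusp6 was at 21.7, 21.4 and 23.8 CPM in ground and 100.1, 97.9 and 102.2 CPM in EPL (log2 fold change 2.17 ± 0.0691 SE, edgeR adjusted p = 7.24e-17). The libraries did not overlap for any of the 3 genes. The ETS factors of this pathway behaved differently: Etv4 rose by only 0.26 with overlapping libraries (without ground replicate 2 0.22, adjusted p = 0.0544), Etv1 did not pass the test (-0.16 ± 0.113), and Etv5 was the member that fell (-0.23 ± 0.0740). The call of Etv5 was lost when counts were scaled to their totals, when no member was called lower, and the count of members called lower was likewise 0 without ground replicate 1, ground replicate 3 or EPL replicate 3, and 2 without EPL replicate 2, where Etv1 was called (-0.29, adjusted p = 0.048). Levels of Spry4 were 132, 163 and 158 CPM in the naive libraries, below EPL (log2 difference 0.73 ± 0.104 SE, edgeR adjusted p = 1.26e-05), whereas Egr1 was at 62.3, 54.5 and 58.8 CPM there and did not differ from EPL beyond the threshold (log2 difference -0.31 ± 0.167 SE, edgeR adjusted p = 0.17).

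FGF ligands and receptors, which feed this cascade, rose in 12 of 18 cases and fell in 4. Fgf4, the autocrine ligand of embryonic stem cells, was at 222, 213 and 227 CPM in ground and 195, 191 and 199.8 CPM in EPL and did not pass the test (log2 fold change -0.18 ± 0.0993 SE, edgeR adjusted p = 0.138). With only the A2 libraries compared it was called lower (-0.16, edgeR adjusted p = 0.0264). Fgf17 was at 14.8, 15.7 and 16.1 CPM in ground and 67.4, 76.7 and 71.0 CPM in EPL (log2 fold change 2.21 ± 0.0930 SE, edgeR adjusted p = 8.21e-15), and Fgf18 and Fgf13 rose by 3.19 and 2.22. The receptor Fgfr1 fell slightly, from 135, 128 and 124 to 101, 98.5 and 103 CPM (log2 fold change -0.35 ± 0.0665 SE, edgeR adjusted p = 1.00e-04). Fgfr2, by contrast, was at 1.28, 1.44 and 1.36 CPM in ground and 22.3, 19.04 and 22.99 CPM in EPL (log2 fold change 3.98 ± 0.160 SE, edgeR adjusted p = 3.71e-15). Fgfr3 rose by 3.10 and Fgfr4 by 1.39, both from levels near or under 1 CPM, so the receptors diverged. Fgf10 fell by 2.19 on the log2 scale.

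The LIF and STAT3 pathway moved down: of 20 genes, 5 rose, 12 fell and 3 did not pass the test (median -0.45). This list shares Klf4, Tfcp2l1, Stat3 and Gbx2 with the naive factors. The receptor subunit Il6st fell by 0.65 on the log2 scale, and the kinases Jak1 and Jak2 by 0.44 and 2.03. Stat3 was at 180.5, 171 and 181 CPM in ground and 115, 138.4 and 134 CPM in EPL (log2 fold change -0.46 ± 0.0763 SE, edgeR adjusted p = 2.28e-05). Socs3, the feedback inhibitor that STAT3 induces, was at 145, 144 and 149.9 CPM in ground and 81.8, 87.1 and 97.9 CPM in EPL (log2 fold change -0.72 ± 0.122 SE, edgeR adjusted p = 3.00e-05), and its naive libraries were at 188, 181 and 175 CPM. Other feedback genes of the pathway went the opposite way, with Cish rising by 1.37 and Socs2 by 1.26. The stretch upstream of the Socs3 start site is shown because it holds a STAT motif, TTCNNNGAA, in capitals, with the RefSeq sequence on GRCm38.p6 at chr11:117969457-117969576, minus strand, written 5′ to 3′.
Socs3: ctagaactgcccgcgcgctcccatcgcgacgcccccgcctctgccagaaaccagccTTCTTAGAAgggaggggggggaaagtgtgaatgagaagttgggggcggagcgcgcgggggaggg
In a window from 250 bases before to 50 after the start, searched on both strands, this motif was present in 2 of the 18 members with a RefSeq promoter (Socs3 and Cish) and in 9.55% of all 27025 genes. The members' share is thus near that of all genes, and of the 2 holders 1 fell and 1 rose.

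Wnt targets, which the GSK3 inhibitor of the ground medium activates, were lower in 11 of 20 cases, higher in 5 and not called in 4 (median -1.01). Axin2, a feedback inhibitor and standard reporter of beta-catenin, was at 66.7, 47.7 and 57.2 CPM in ground and 3.60, 4.58 and 5.61 CPM in EPL (log2 fold change -3.64 ± 0.169 SE, edgeR adjusted p = 4.03e-14). Sp5, a zinc finger target, was at 42.1, 24.1 and 31.3 CPM in ground and 1.54, 2.40 and 2.595 CPM in EPL (log2 fold change -3.90 ± 0.214 SE, edgeR adjusted p = 6.77e-13). Apcdd1, a membrane-bound Wnt inhibitor, was at 61.3, 52.9 and 55.2 CPM in ground and 2.72, 2.62 and 3.62 CPM in EPL (log2 fold change -4.24 ± 0.133 SE, edgeR adjusted p = 5.42e-17). Cdx1, a caudal homeobox target, went from 24.5, 16.4 and 21.1 CPM to 3 counts in all over the EPL libraries, a ratio of 358 (95% exact interval 122 to 1738). Each of these genes was below its ground range in every EPL library. Lef1, a nuclear partner of beta-catenin, moved the other way, at 0.851, 0.442 and 0.544 CPM in ground and 26.6, 40.5 and 45.7 CPM in EPL (log2 fold change 5.90 ± 0.282 SE, edgeR adjusted p = 6.18e-14). Its relatives Tcf7 and Tcf7l1 did not pass the test (-0.12 ± 0.109 and -0.12 ± 0.0715; without EPL replicate 1 Tcf7 was at -0.29, adjusted p = 0.0138), and Tcf7l2 fell by 1.03 on the log2 scale. Ccnd1, often listed as a Wnt target, was at 223, 195 and 227 CPM in ground and 185, 216 and 211 CPM in EPL (log2 fold change -0.075 ± 0.0925 SE, edgeR adjusted p = 0.515). In naive cells, which also lack the GSK3 inhibitor, Axin2 was at 4.90, 4.02 and 4.73 CPM (log2 difference 0.017 ± 0.202 SE, edgeR adjusted p = 0.962 for EPL minus naive).

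Upstream sequences of the 2 Wnt targets whose promoter window held a TCF/LEF motif are shown, since both fell; the motif CTTTGAT, or its complement ATCAAAG on the other strand, is in capitals. The RefSeq stretches on GRCm38.p6 are chr2:70474762-70474881 (plus strand) for Sp5 and chr14:61038127-61038237 (minus strand) for Tnfrsf19, a receptor of the TNF family.
Sp5: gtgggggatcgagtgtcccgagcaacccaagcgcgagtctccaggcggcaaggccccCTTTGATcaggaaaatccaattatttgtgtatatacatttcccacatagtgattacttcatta
Tnfrsf19: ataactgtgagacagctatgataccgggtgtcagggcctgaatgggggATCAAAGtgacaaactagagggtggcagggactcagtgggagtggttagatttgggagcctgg
Of the 14 members with a RefSeq promoter, 2 held the motif, against 4.29% of all genes. Tnfrsf19 was at 32.9, 25.7 and 29.2 CPM in ground and 6.02, 5.03 and 6.40 CPM in EPL (log2 fold change -2.33 ± 0.131 SE, edgeR adjusted p = 1.07e-12).

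BMP genes were mixed, with 4 of 16 higher and 10 lower. Id1, a dominant-negative helix-loop-helix factor induced by BMP and SMAD1, was at 7.80, 11.8 and 7.56 CPM in ground and 87.4, 132 and 107 CPM in EPL (log2 fold change 3.59 ± 0.159 SE, edgeR adjusted p = 1.73e-14). Id2 rose by 2.09, Id3 did not pass the test (0.063 ± 0.123) and Id4 fell by 2.43 on the log2 scale, so every outcome occurred within the Id family. The ligand Bmp4 was at 20.1, 20.7 and 22.9 CPM in ground and 45.6, 48.4 and 56.8 CPM in EPL (log2 fold change 1.24 ± 0.0916 SE, edgeR adjusted p = 1.07e-10), while Bmp2 and Bmp7 fell by 1.69 and 1.10. The inhibitory SMADs, Smad6 and Smad7, fell by 0.97 and 1.79. In the Nodal and activin pathway 5 of 16 rose and 7 fell. Nodal itself was at 116, 114 and 116 CPM in ground and 79.3, 83.4 and 87.8 CPM in EPL (log2 fold change -0.47 ± 0.0732 SE, edgeR adjusted p = 1.02e-05). Lefty1, its secreted antagonist and target, was at 12.1, 11.7 and 15.8 CPM in ground and 169, 71.9 and 62.0 CPM in EPL (log2 fold change 2.94 ± 0.319 SE, edgeR adjusted p = 5.63e-08), whereas Lefty2 was at 106, 117 and 129 CPM in ground and 146, 85.9 and 75.6 CPM in EPL and did not pass the test (log2 fold change -0.19 ± 0.233 SE, edgeR adjusted p = 0.508). Skil, a SMAD corepressor, rose by 2.72, and Smad3, the convertases Pcsk6 and Furin, and follistatin (Fst) fell by 1.57, 2.25, 1.46 and 2.95.

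In the Notch pathway, 11 of 16 genes rose and 2 fell. The ligand Dll1 was at 0.0946, 0.111 and 0.0544 CPM in ground and 9.63, 9.05 and 7.97 CPM in EPL (log2 fold change 6.58 ± 0.263 SE, edgeR adjusted p = 3.34e-15), and Jag2, another ligand, was at 7.42, 9.01 and 6.96 CPM in ground and 55.3, 47.1 and 48.5 CPM in EPL (log2 fold change 2.69 ± 0.137 SE, edgeR adjusted p = 1.79e-13). The Fringe glycosyltransferases Lfng and Mfng, which tune ligand choice, rose by 3.93 and 3.79. Hes1, the classic transcriptional target, fell from 37.9, 36.3 and 38.97 CPM to 13.7, 12.5 and 11.8 CPM (log2 fold change -1.57 ± 0.104 SE, edgeR adjusted p = 1.66e-11). The ligand Jag1 was the other member that fell, by 0.46. Without ground replicate 1 or EPL replicate 3, 1 member rather than 2 was called lower, since Jag1 lost its call. Dll1, Jag2, Lfng and Mfng were thus higher in EPL while Jag1 and Hes1 were lower. The receptors changed less: Notch1 did not pass the test (-0.15 ± 0.157), and Notch2, Notch3 and Notch4 rose by 0.61, 0.72 and 0.57. Notch4 was not called without ground replicate 2 (edgeR adjusted p = 0.0594) or EPL replicate 3 (0.06). Hey2 and Nrarp did not pass the test either.

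**Figure D3:**
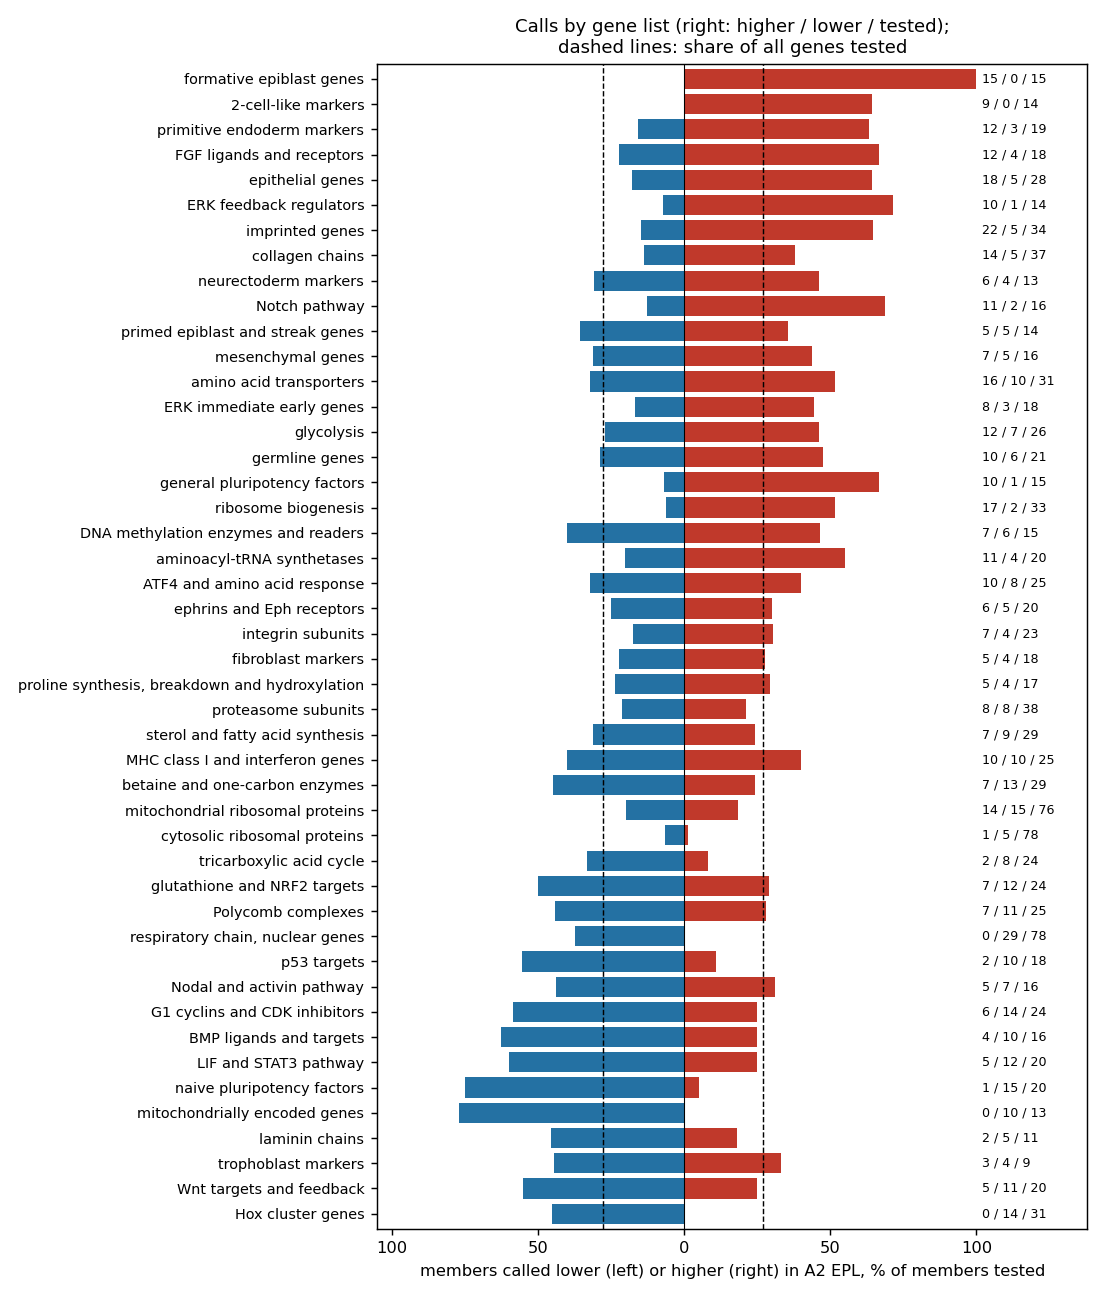
Share of the tested members of each of 46 gene lists called higher (red, to the right) or lower (blue, to the left) in A2 EPL, in percent, ordered by the median change; numbers at the right give higher, lower and tested, and dashed lines mark the shares among all genes, 27.2% higher and 27.6% lower. Formative epiblast genes lie at the top with 15 of 15 higher and Hox genes at the bottom with 14 of 31 lower, while cytosolic ribosomal proteins have almost no calls.

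Across all genes, the 12 steepest rises among genes of at least 5 CPM ran from 6.002 to 7.64. Esrp1 (chr4:11331933-11386783), an epithelial splicing regulator, was at 0.236, 0.442 and 0.326 CPM in ground and 70.3, 69.5 and 62.0 CPM in EPL (log2 fold change 7.64 ± 0.152 SE, edgeR adjusted p = 5.33e-20). Bcl11a, a zinc finger repressor, was at 0.0473, 0.221 and 0.0544 CPM in ground and 10.9, 17.6 and 18.04 CPM in EPL (log2 fold change 7.13 ± 0.332 SE, edgeR adjusted p = 4.01e-14), and Enpp2, which encodes autotaxin, was at 0.142, 0.111 and 0.0544 CPM in ground and 13.9, 11.9 and 10.7 CPM in EPL (log2 fold change 6.78 ± 0.432 SE, edgeR adjusted p = 8.59e-12). Myrf, a membrane-bound transcription factor known from myelination, was at 2.13, 1.99 and 2.66 CPM in ground and 156, 189.5 and 180.1 CPM in EPL (log2 fold change 6.28 ± 0.152 SE, edgeR adjusted p = 9.84e-19). The other members of this group were Pou3f1, Dll1 and Egr1, described above, and Jph4, Coch, Zfp608, Vrtn and Hs6st2. Vrtn, a factor known from vertebral number in pigs, was at 0.236, 0.332 and 0.380 CPM in ground and 19.4, 24.7 and 20.8 CPM in EPL, and in naive libraries at 2.59, 2.79 and 3.27 CPM (log2 difference 2.90 ± 0.138 SE, edgeR adjusted p = 5.19e-12).

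The steepest falls ran from -6.06 (Crxos) to the loss of Pglyrp1, a peptidoglycan recognition protein, which had 507 counts in ground and none in EPL, at least 151-fold lower. Tlx2, a homeobox factor, was at 16.6, 14.4 and 12.7 CPM in ground and 0, 0 and 0.0603 CPM in EPL, with 1 count in all in EPL and a ratio of 754 (95% exact interval 135 to 29806). Ly6a, which encodes the surface protein Sca-1, was at 60.6, 56.2 and 51.5 CPM in ground and 0.295, 0.279 and 0.181 CPM in EPL (log2 fold change -7.76 ± 0.228 SE, edgeR adjusted p = 1.90e-17). Aox3, an aldehyde oxidase, was at 24.7, 19.4 and 19.08 CPM in ground and 0.177, 0.223 and 0.121 CPM in EPL (log2 fold change -6.86 ± 0.322 SE, edgeR adjusted p = 4.50e-14). Dmgdh and Bhmt, enzymes of dimethylglycine and betaine breakdown, and Bhmt2, a relative of Bhmt, were also among the 12 and are described with one-carbon metabolism. Sh2d4b, Pramel30, Cdx1 and Nkx1-2 completed the group. Pramel30 belongs to a multigene family with near-identical copies, and its counts are uncertain for that reason.

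By share of all counts, the largest gains were Pkm, Eef2, Ldha, Eno1, Dnmt3b and Enah. Eef2, the translocase of protein synthesis, was at 4175, 3626 and 4182 CPM in ground and 6149.9, 5219 and 4844 CPM in EPL (log2 fold change 0.44 ± 0.0809 SE, edgeR adjusted p = 8.56e-05). Enah, an actin regulator, was at 533, 487 and 502 CPM in ground and 1056, 1189.6 and 1119 CPM in EPL (log2 fold change 1.14 ± 0.0849 SE, edgeR adjusted p = 1.20e-10). The largest losses by mean CPM were mt-Co1, Tfcp2l1, mt-Nd1, mt-Cytb, mt-Nd5 and Ckb. The mitochondrial transcripts among them were highest in ground replicate 2, and the groups overlapped for mt-Nd1 and mt-Cytb. Without that library neither was called (mt-Nd1 -0.35, adjusted p = 0.146; mt-Cytb -0.22, adjusted p = 0.332). Ckb, the brain-type creatine kinase that buffers ATP, was at 1150.3, 1050.0 and 1148 CPM in ground and 294, 290.0 and 272 CPM in EPL (log2 fold change -1.97 ± 0.0734 SE, edgeR adjusted p = 1.10e-15).

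The genes for de novo DNA methylation Dnmt3a, Dnmt3b and Dnmt3l rose. Of 15 methylation enzymes and readers, 7 rose, 6 fell and 2 did not pass the test. Dnmt3b (chr2:153649450-153687730), a de novo methyltransferase, was at 165, 157 and 174 CPM in ground and 839, 827 and 712 CPM in EPL (log2 fold change 2.26 ± 0.0838 SE, edgeR adjusted p = 9.77e-16). Dnmt3a was at 18.1, 18.2 and 21.0 CPM in ground and 239.6, 243 and 257 CPM in EPL (log2 fold change 3.69 ± 0.0823 SE, edgeR adjusted p = 3.64e-19), and the catalytically inactive cofactor Dnmt3l was at 46.5, 60.5 and 54.8 CPM in ground and 546, 589 and 532 CPM in EPL (log2 fold change 3.37 ± 0.0940 SE, edgeR adjusted p = 9.10e-18). All 3 rose at least 4-fold with no overlap between libraries. The maintenance enzyme Dnmt1 did not pass the test (0.054 ± 0.102), and its recruiter Uhrf1 fell by 0.29 on the log2 scale. Of the oxidases, Tet1 did not pass (0.28 ± 0.195), Tet2 was at 225, 235 and 210.2 CPM in ground and 78.9, 116 and 116 CPM in EPL (log2 fold change -1.10 ± 0.185 SE, edgeR adjusted p = 2.58e-05) and Tet3 rose by 0.85. Tet1 was called higher without the filter on low counts (0.30, edgeR adjusted p = 0.00122) and with only the A2 libraries compared (0.29, 0.0351). No methylation was measured here.

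Polycomb genes, whose products repress developmental genes, counted 7 of 25 higher and 11 lower, near the shares of all genes on the higher side. Cbx8, a chromodomain subunit of complex 1, was at 4.21, 5.80 and 4.73 CPM in ground and 0.472, 0.558 and 0.483 CPM in EPL (log2 fold change -3.26 ± 0.248 SE, edgeR adjusted p = 1.76e-10). Its relative Cbx7 rose by 0.37. In complex 2, Suz12 was at 511, 492 and 506 CPM in ground and 267, 302 and 289 CPM in EPL (log2 fold change -0.81 ± 0.0787 SE, edgeR adjusted p = 9.33e-09), Jarid2 rose by 0.94, Phf19 rose by 2.41, Ezh2 rose by 0.25 and Eed did not pass the test (0.026 ± 0.0692). Subunits of one complex therefore moved in opposite directions.

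Hox genes, classical Polycomb targets, held no call upwards, and 14 of 31 fell, but many were below 1 CPM. Hoxc13 was at 18.02, 16.5 and 17.8 CPM in ground and 1.42, 0.670 and 1.63 CPM in EPL (log2 fold change -3.82 ± 0.196 SE, edgeR adjusted p = 2.12e-13), and Hoxc12 was at 7.42, 8.23 and 6.03 CPM in ground and 0, 0.223 and 0.181 CPM in EPL (log2 fold change -5.67 ± 0.444 SE, edgeR adjusted p = 2.91e-10). Hoxb9 was at 6.48, 5.58 and 5.599 CPM in ground and 0.295, 0.447 and 0.0603 CPM in EPL (log2 fold change -4.41 ± 0.337 SE, edgeR adjusted p = 1.95e-10). The summed level of all 31 was 39.73 to 42.28 CPM in ground libraries and 4.243 to 5.13 CPM in EPL libraries, so the groups did not overlap. Hoxc5, Hoxc9 and Hoxc11 had no count in EPL and 20 to 32 in ground, at least 5.95-fold, 6.24-fold and 9.51-fold lower. With only the 6 A2 libraries in the fit, where the filter kept fewer genes (14552), 7 Hox genes were called lower instead of 14.

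Among 34 imprinted genes, expressed from one parental allele, 22 rose and 5 fell (median 0.77). Cdkn1c, a growth-restricting CDK inhibitor, was at 1.56, 1.33 and 1.47 CPM in ground and 62.5, 63.4 and 61.6 CPM in EPL (log2 fold change 5.42 ± 0.138 SE, edgeR adjusted p = 1.97e-18). Peg10, a retrotransposon-derived gene, was at 74.3, 95.7 and 71.9 CPM in ground and 467, 568 and 453 CPM in EPL (log2 fold change 2.62 ± 0.195 SE, edgeR adjusted p = 1.24e-10). Phlda2 and Magel2 rose by 3.97 and 4.36, and Snrpn and Peg3 by 1.88 and 2.12. Of the 5 that fell, Plagl1, a zinc finger factor, was at 26.2, 31.6 and 21.7 CPM in ground and 1.24, 0.838 and 0.724 CPM in EPL (log2 fold change -4.82 ± 0.277 SE, edgeR adjusted p = 1.48e-12), and Peg12, Zrsr1, Mcts2 and Copg2 fell by 1.45, 0.90, 0.44 and 0.31 on the log2 scale. Rises therefore covered genes of both parental origins, with the maternally expressed Cdkn1c and Phlda2 beside the paternally expressed Peg10, Peg3 and Snrpn. Igf2 was at 1.04, 2.76 and 0.707 CPM in ground and 1.95, 2.40 and 2.41 CPM in EPL and did not pass the test (log2 fold change 0.61 ± 0.403 SE, edgeR adjusted p = 0.215; without ground replicate 2 1.35, adjusted p = 0.0113), while H19, its neighbour, rose by 1.51. Several of these genes have overlapping or antisense partners, and the library kit does not mark strand.

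The steepest falls among the metabolic lists were those of Dmgdh and Bhmt, of dimethylglycine and betaine breakdown, and of Bhmt2. Of 29 one-carbon genes, 7 rose, 13 fell and 9 did not pass the test (median -0.024). Dmgdh, the mitochondrial dimethylglycine dehydrogenase, was at 60.3, 50.2 and 52.6 CPM in ground and 0.118, 0.335 and 0.241 CPM in EPL (log2 fold change -7.83 ± 0.213 SE, edgeR adjusted p = 6.80e-18). Bhmt and Bhmt2, the methyltransferases that remethylate homocysteine, were at 21.0, 16.03 and 17.2 and 19.105, 15.7 and 17.6 CPM in ground and at 0, 0.0558 and 0.241 and 0.118, 0.0558 and 0.121 CPM in EPL, changes of -7.45 ± 0.433 and -7.40 ± 0.283 (adjusted p = 1.81e-12 and 1.66e-15 with edgeR). These 3 transcripts were also low in naive libraries, where Dmgdh was at 0.461, 0.294 and 0.244 CPM. Methionine synthase (Mtr) fell by 1.04 on the log2 scale, and the 10-formyltetrahydrofolate dehydrogenases Aldh1l1 and Aldh1l2 by 1.66 and 1.68. Gldc, the glycine decarboxylase, was at 67.5, 65.2 and 70.1 CPM in ground and 349, 286 and 248 CPM in EPL (log2 fold change 2.12 ± 0.0944 SE, edgeR adjusted p = 1.96e-14). Its partner Amt fell by 0.48, and Tdh, the threonine dehydrogenase on which mouse embryonic stem cells depend, was at 851, 803 and 873 CPM in ground and 581, 537 and 524 CPM in EPL (log2 fold change -0.62 ± 0.0802 SE, edgeR adjusted p = 7.45e-07). The cytosolic trifunctional enzyme Mthfd1 did not pass the test (-0.086 ± 0.0585), and the mitochondrial Mthfd2 rose by 0.71. Choline dehydrogenase (Chdh) was below the filter on low counts.

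Of 17 genes of proline metabolism tested, 5 rose, 4 fell and 8 did not pass the test, with a median close to 0, so the share called was near that of all genes. Prodh, the first enzyme of proline breakdown, was at 27.4, 30.1 and 25.003 CPM in ground and 41.7, 40.3 and 39.3 CPM in EPL (log2 fold change 0.56 ± 0.0857 SE, edgeR adjusted p = 8.50e-06). Aldh4a1, the second step, fell by 0.45 on the log2 scale. On the synthesis side, Aldh18a1 did not pass the test, at 67.9, 64.2 and 72.0 CPM in ground and 70.3, 68.5 and 65.1 CPM in EPL (log2 fold change -0.0017 ± 0.0615 SE, edgeR adjusted p = 0.988). Pycr1 fell by 0.43 (without EPL replicate 2 -0.34, adjusted p = 0.0632). Oat, which links ornithine to proline, was at 129, 114 and 125 CPM in ground and 43.2, 41.7 and 37.9 CPM in EPL (log2 fold change -1.58 ± 0.0659 SE, edgeR adjusted p = 6.91e-15). Of the prolyl hydroxylases that act on collagen, P4ha2 rose by 0.82, and P3h2 went from 3 counts to 22, a ratio of 8.22 (95% exact interval 2.47 to 42.9). P3h4, a relative of P3h2 that lacks the catalytic domain, rose by 2.03. Pycr3 was not analysed here.

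Amino acid transporters rose in 16 of 31 cases and fell in 10. Slc38a2, which encodes SNAT2, a sodium-coupled carrier of small neutral amino acids that takes up proline, was at 206, 198 and 193 CPM in ground and 585, 631 and 599 CPM in EPL (log2 fold change 1.60 ± 0.103 SE, edgeR adjusted p = 9.42e-12). Slc7a7, the light chain of the y+L exchanger, was at 12.9, 13.9 and 14.8 CPM in ground and 167, 184 and 185 CPM in EPL (log2 fold change 3.69 ± 0.0870 SE, edgeR adjusted p = 6.05e-19). Slc7a3, a cationic carrier, rose by 0.72, and Slc3a2, the common heavy chain, by 0.62. Slc1a5, which carries glutamine, was at 86.9, 84.9 and 89.1 CPM in ground and 52.6, 53.9 and 54.1 CPM in EPL (log2 fold change -0.70 ± 0.0721 SE, edgeR adjusted p = 2.51e-08), and Slc7a1, Slc6a8 and Slc38a10 fell by 0.62, 0.70 and 0.67. Of these list members, Slc6a8 carries creatine. Slc38a2 was above its naive level of 346, 316 and 351 CPM (log2 difference 0.84 ± 0.101 SE, edgeR adjusted p = 1.56e-06). The transporters Slc6a20a, Slc6a20b and Slc36a2, known carriers of imino acids, were below the filter on low counts.

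The amino acid response, which ATF4 drives when amino acids run short, went both ways, as did all genes tested (27.2% higher and 27.6% lower). Of 25 tested, 10 rose, 8 fell and 7 did not pass the test. Asns, asparagine synthetase, was at 677, 638 and 686 CPM in ground and 192, 166 and 180.4 CPM in EPL (log2 fold change -1.90 ± 0.0801 SE, edgeR adjusted p = 8.47e-15). Atf5, Gdf15 and Nupr1 fell by 1.53, 1.41 and 1.14 on the log2 scale. Chac1, which degrades glutathione, was instead at 4.82, 4.09 and 4.84 CPM in ground and 17.8, 13.8 and 11.9 CPM in EPL (log2 fold change 1.66 ± 0.185 SE, edgeR adjusted p = 8.29e-08), and Stc2, Vldlr and the cystine carrier Slc7a11 rose by 1.58, 1.60 and 1.25. Atf4 itself was at 269.8, 279.8 and 290.0 CPM in ground and 249.8, 236 and 248 CPM in EPL (log2 fold change -0.19 ± 0.0702 SE, edgeR adjusted p = 0.0233), a call that was lost without ground replicate 2 or 3 or EPL replicate 2 or 3 (without ground replicate 3 -0.15, adjusted p = 0.137), and Ddit3 and Trib3 did not pass the test (-0.054 ± 0.129 and 0.20 ± 0.109). Trib3 was called higher with total-count scaling (0.26, edgeR adjusted p = 0.0469) and with only the A2 libraries compared (0.21, 0.0361). Upstream sequences of Asns and Chac1 are shown because they hold the same element and their transcripts moved in opposite directions. The C/EBP-ATF response element, TGATGNAA or its reverse complement, is in capitals, and the RefSeq stretches on GRCm38.p6 are chr6:7693210-7693288 (minus strand) for Asns and chr2:119350993-119351112 (plus strand) for Chac1.
Asns: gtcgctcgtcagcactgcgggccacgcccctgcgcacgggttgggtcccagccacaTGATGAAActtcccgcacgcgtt
Chac1: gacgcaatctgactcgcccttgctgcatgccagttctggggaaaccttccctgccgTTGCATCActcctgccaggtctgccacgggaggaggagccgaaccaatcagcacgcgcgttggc
Of 23 members with a RefSeq promoter, 8 held this element, against 4.51% of all genes. Among the 8, Asns and Nupr1 fell, Chac1, Slc7a11 and Vldlr rose, Atf3 and Trib3 did not pass the test, and Fgf21 was below the filter.

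Aminoacyl-tRNA synthetases of the cytosol changed by less than 2-fold throughout. Of 20 tested, 11 rose and 4 fell (median 0.18), led by Sars at 185, 176 and 201 CPM in ground and 391, 343 and 329.9 CPM in EPL (log2 fold change 0.92 ± 0.0774 SE, edgeR adjusted p = 9.50e-10) and Lars, which rose by 0.63. Without ground replicate 2 only 7 were called higher, and without ground replicate 3 or EPL replicate 3 only 2 were called lower.

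**Figure D4:**
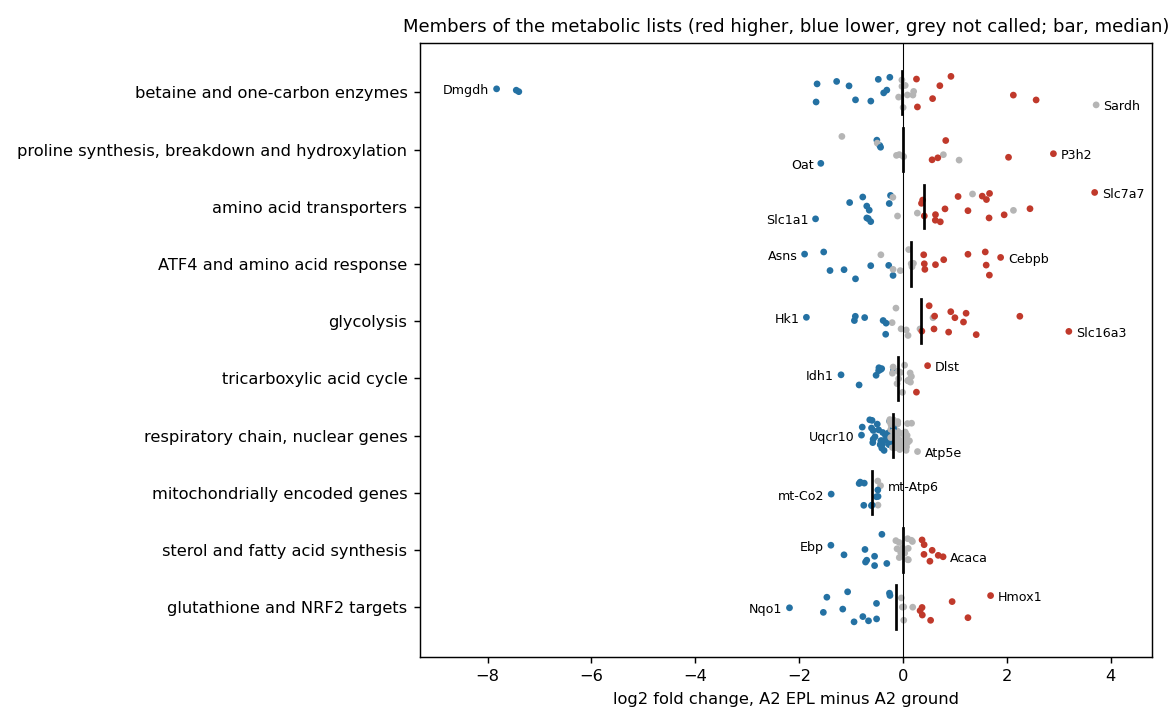
Log2 fold change from A2 ground to A2 EPL (horizontal axis) of the tested members of 10 metabolic lists; each point is a gene, red where it rose, blue where it fell and grey where it did not pass the test, and the black bar is the median. Dmgdh, Bhmt and Bhmt2 stand apart at the far left, below -7, while the nuclear respiratory chain genes sit in a narrow band with a median of -0.19.

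Of 26 glycolytic genes, 12 rose and 7 fell (median 0.34). Slc16a3, the lactate exporter MCT4, was at 14.99, 17.5 and 17.9 CPM in ground and 165, 143 and 152 CPM in EPL (log2 fold change 3.19 ± 0.357 SE, edgeR adjusted p = 9.09e-08). Pdk1, a kinase that inhibits pyruvate dehydrogenase, was at 49.98, 47.6 and 55.9 CPM in ground and 253, 237 and 238 CPM in EPL (log2 fold change 2.25 ± 0.166 SE, edgeR adjusted p = 1.11e-10). Pfkl, the liver-type phosphofructokinase, was at 187, 171 and 219 CPM in ground and 558, 508 and 465 CPM in EPL (log2 fold change 1.41 ± 0.179 SE, edgeR adjusted p = 5.93e-07), and Ldha, lactate dehydrogenase A, was at 922, 975 and 1068 CPM in ground and 2158, 1909 and 1853 CPM in EPL (log2 fold change 0.997 ± 0.202 SE, edgeR adjusted p = 2.24e-04). In each of these 4 genes the EPL libraries lay above the ground libraries. Isoform pairs diverged. The glucose carrier Slc2a1 was at 296, 293 and 302 CPM in ground and 665, 676 and 723 CPM in EPL (log2 fold change 1.21 ± 0.200 SE, edgeR adjusted p = 2.06e-05), while Slc2a3 was at 1379.9, 1268 and 1340.3 CPM in ground and 739, 659 and 684 CPM in EPL (log2 fold change -0.94 ± 0.0854 SE, edgeR adjusted p = 3.54e-09). Likewise Ldhb fell by 0.92 on the log2 scale against the rise of Ldha, and Pfkm fell by 0.33 against that of Pfkl. Hk1, a hexokinase, fell by 1.86. Pkm was at 3325, 3022 and 3565 CPM in ground and 5255, 4977 and 4737 CPM in EPL (log2 fold change 0.59 ± 0.117 SE, edgeR adjusted p = 1.69e-04). Gapdh and Aldoa did not pass the test (-0.039 ± 0.0838 and 0.060 ± 0.159); both have many processed pseudogenes that can share reads.

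In the tricarboxylic acid cycle 2 of 24 genes were higher and 8 lower. The share that was higher lay below that of all genes, and the share that was lower was near it. Idh1 and Idh2, the NADP-dependent isocitrate dehydrogenases, were at 293 ± 0.817 and 158 ± 9.22 CPM in ground and 128 ± 28.1 and 87.7 ± 12.2 CPM in EPL, changes of -1.19 ± 0.102 and -0.85 ± 0.101 (adjusted p = 1.27e-09 and 2.34e-07 with edgeR). The NAD-dependent subunit Idh3a and citrate synthase (Cs) did not pass the test (0.029 ± 0.0839 and -0.050 ± 0.0589). None of 78 nuclear genes of the respiratory chain rose and 29 fell, with changes no larger than that of Uqcr10 (-0.80 ± 0.138). Cox5a, a subunit of cytochrome c oxidase, was at 261, 251 and 271 CPM in ground and 160.3, 140.4 and 154 CPM in EPL (log2 fold change -0.79 ± 0.107 SE, edgeR adjusted p = 1.56e-06). Without ground replicate 3 the count of respiratory chain genes that fell was 19, and without EPL replicate 2 it was 18.

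Of 13 mitochondrially encoded genes 10 fell and 3 did not pass the test. The cytochrome c oxidase subunit mt-Co1 was at 11270.4, 15612 and 8762 CPM in ground and 5685, 6585 and 7555 CPM in EPL (log2 fold change -0.85 ± 0.199 SE, edgeR adjusted p = 0.00101). The 3 ground libraries differed widely from each other, replicate 2 being the highest, and none overlapped the EPL libraries. Summed over the 13 genes, the level was 19460 to 34850 CPM in ground and 13610 to 18730 CPM in EPL. Without ground replicate 2, 3 of the 13 were called lower, and without EPL replicate 1, 6 were. These genes rise and fall with the share of mitochondrial transcripts given for each group at the start.

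Of 29 genes of sterol and fatty acid synthesis, 7 rose and 9 fell, near the shares of all genes (27.2% and 27.6%). Dhcr7, of the last step to cholesterol, rose by 0.68 and the acetyl-CoA carboxylase Acaca by 0.77, whereas Sqle, the squalene epoxidase, was at 177, 168 and 185 CPM in ground and 121, 99.7 and 101 CPM in EPL (log2 fold change -0.72 ± 0.0801 SE, edgeR adjusted p = 7.63e-08) and Ebp fell by 1.39. Against naive cells the picture differed: 21 of the 29 were higher in EPL than in naive (of all genes tested 32.8% were called in that comparison, 16.8% higher) and 1 was lower. Insig1, a sterol-regulated brake on the pathway, was at 63.7, 64.2 and 59.4 CPM in ground, 35.2, 39.9 and 37.3 CPM in naive and 95.2, 53.2 and 50.6 CPM in EPL libraries (log2 difference 0.82 ± 0.195 SE, edgeR adjusted p = 0.00241 against naive, and a change of 0.087 ± 0.191 against ground that did not pass the test). Both comparisons use the same EPL libraries. The sterol regulatory element TCACNCCAC was found in 1 of 21 promoters of the group (Hmgcs1) and in 1.44% of all genes.

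Glutathione and NRF2 target genes fell in 12 of 24 cases and rose in 7. Nqo1, a quinone reductase, was at 107, 106 and 104 CPM in ground and 19.6, 24.2 and 25.8 CPM in EPL (log2 fold change -2.19 ± 0.108 SE, edgeR adjusted p = 1.09e-13), and Gpx1, Gpx2 and Gstm2 fell by 1.16, 1.47 and 1.54 on the log2 scale. Hmox1, the haem oxygenase, was at 54.4, 49.8 and 51.3 CPM in ground and 149, 174 and 176 CPM in EPL (log2 fold change 1.68 ± 0.0716 SE, edgeR adjusted p = 9.14e-15). Gclm, the modifier subunit of glutamate-cysteine ligase, rose by 0.33.

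Ribosomal protein genes of the cytosol were called in 6 of 78 cases, 1 higher and 5 lower (Rps2, Rps23, Rps28, Rps29 and Rpl31), with changes of those that fell from -0.37 (Rps28) to -0.28 (Rps23). The count that fell was 1 without ground replicate 1 and 0 without ground replicate 3, EPL replicate 2 or EPL replicate 3, and none was called higher without ground replicate 3 or EPL replicate 2. Many of these genes have pseudogene copies. Of 33 genes of ribosome biogenesis, 17 rose and 2 fell (median 0.21), all by less than 2-fold. Bop1 was at 168, 149 and 164 CPM in ground and 242, 251 and 246 CPM in EPL (log2 fold change 0.62 ± 0.0676 SE, edgeR adjusted p = 5.80e-08), and Rrn3, an initiation factor of RNA polymerase I, rose by 0.51. Of 76 mitochondrial ribosomal proteins 14 rose and 15 fell, and those that rose were 9 without ground replicate 2 and 7 without EPL replicate 1. Proteasome subunits counted 8 that rose and 8 that fell of 38, both below the shares of all genes. Of the 38, 5 rose without EPL replicate 1 or 3, and 5 fell without ground replicate 3. The 4 that rose at least 2-fold were special subunits: the immunoproteasome genes Psmb8, Psmb9 and Psmb10 and the testis-type Psma8. Psmb10 was at 10.2, 10.997 and 12.9 CPM in ground and 31.5, 27.3 and 26.1 CPM in EPL (log2 fold change 1.32 ± 0.148 SE, edgeR adjusted p = 9.23e-08), and Psmb8 went from 1 count to 24, a ratio of 26.9 (95% exact interval 4.39 to 1106).

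Regulators of the G1 phase fell in 14 of 24 cases and rose in 6. Ccnd2 was at 0.662, 0.718 and 0.924 CPM in ground and 14.999, 28.4 and 29.8 CPM in EPL (log2 fold change 4.99 ± 0.316 SE, edgeR adjusted p = 8.13e-12), Ccnd3 was at 327, 309 and 352 CPM in ground and 140.0, 165 and 163 CPM in EPL (log2 fold change -1.08 ± 0.0689 SE, edgeR adjusted p = 9.32e-12), and Ccnd1 did not pass the test, so the D-type cyclins differed in direction. Ccne1 rose by 1.196. The inhibitor Cdkn1a, which encodes p21, was at 229, 203 and 207 CPM in ground and 38.97, 35.3 and 38.8 CPM in EPL (log2 fold change -2.50 ± 0.130 SE, edgeR adjusted p = 2.81e-13), and Cdkn2a and Cdkn1b fell by 2.19 and 0.75 on the log2 scale, in contrast to Cdkn1c. Among 18 p53 targets, 10 fell and 2 rose; Ccng1 and Phlda3 fell by 0.81 and 0.86, and Trp53 itself did not pass the test (0.0084 ± 0.0688). Pmaip1, which encodes the cell death protein NOXA, rose by 1.05.

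Of 28 epithelial genes, 18 rose and 5 fell (median 1.2). Epcam was at 28.9, 27.6 and 28.3 CPM in ground and 176, 164 and 148 CPM in EPL (log2 fold change 2.52 ± 0.0929 SE, edgeR adjusted p = 8.97e-16). Cldn7, a tight junction claudin, was at 1.51, 0.829 and 1.09 CPM in ground and 13.2, 7.04 and 6.52 CPM in EPL (log2 fold change 2.94 ± 0.267 SE, edgeR adjusted p = 3.55e-09), and Crb3, Ovol1 and Lsr rose by 3.04, 4.42 and 2.05. The claudin Cldn4 fell by 0.87 on the log2 scale, and Tjp1, the scaffold protein ZO-1, was not called (log2 fold change 0.19 ± 0.128 SE, edgeR adjusted p = 0.229). Tjp1 was called higher without the filter on low counts (0.21, edgeR adjusted p = 0.0445) and with only the A2 libraries compared (0.20, 0.0154). Cdh1, or E-cadherin, was at 564, 511 and 546 CPM in ground and 473, 454 and 427 CPM in EPL and fell slightly (log2 fold change -0.26 ± 0.0745 SE, edgeR adjusted p = 0.00508), but was not called without EPL replicate 3 (-0.20, adjusted p = 0.0509). Krt8, Spint1 and St14 fell by 2.09, 1.67 and 1.07 on the log2 scale, while Krt18, the usual partner of Krt8, rose by 0.89. E-cadherin and Krt8 were thus among the 5 genes that fell.

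Of 16 mesenchymal genes, 7 were higher and 5 lower, against 27.2% and 27.6% of all genes tested. Cdh2, or N-cadherin, rose by 0.71 and Mmp14 by 1.82. Zeb1 and Snai1, repressors of E-cadherin, were at 25.1 ± 0.465 and 8.53 ± 0.670 CPM in ground and 12.4 ± 1.22 and 2.52 ± 0.252 CPM in EPL, changes of -1.02 ± 0.121 and -1.76 ± 0.246 (adjusted p = 2.28e-07 and 2.52e-06 with edgeR), whereas Zeb2 rose by 2.29. Fibronectin (Fn1) was at 2058, 1814 and 1761 CPM in ground and 1076, 1191 and 1149 CPM in EPL (log2 fold change -0.72 ± 0.171 SE, edgeR adjusted p = 0.00111). Vimentin (Vim) did not pass the test (-0.31 ± 0.137). It was called lower without EPL replicate 3 (-0.38, edgeR adjusted p = 0.0483) and without the filter on low counts (-0.28, 0.00303). The same held with only the A2 libraries compared (-0.29, 0.0181) and with a replicate block (-0.31, 0.0406).

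Of the extracellular matrix genes, collagen chains rose in 14 of 37 cases and fell in 5. Col18a1, a basement membrane collagen, was at 237, 244 and 239.8 CPM in ground and 558, 623 and 594 CPM in EPL (log2 fold change 1.30 ± 0.0854 SE, edgeR adjusted p = 1.45e-11). Col4a1 and Col4a2, the main collagen IV chains, rose by 1.91 and 1.32. Col8a2 had no count in ground and 68 in EPL, at least 25.4-fold higher. Laminin chains fell in 5 of 11 cases and rose in 2. Lamc1 was at 1531, 1360.2 and 1465 CPM in ground and 546, 708 and 696 CPM in EPL (log2 fold change -1.16 ± 0.1501 SE, edgeR adjusted p = 7.90e-07), while Lamb1 was at 35.4, 34.8 and 34.3 CPM in ground and 96.5, 129.98 and 113 CPM in EPL (log2 fold change 1.70 ± 0.1497 SE, edgeR adjusted p = 2.00e-09). The summed level of laminins was 2112 to 2331 CPM in ground libraries and 1007 to 1334 CPM in EPL libraries, and that of collagens was 300.3 to 312.4 CPM and 644.9 to 755.8 CPM. Among 23 integrin subunits, 7 rose, near the share of all genes, and 4 fell, below that share. Itgb7, Itga9 and Itga5 rose by 2.59, 2.12 and 1.12, and Itgb5, Itgb3 and Itgav fell by 1.56, 1.56 and 1.38. Of 20 ephrins and Eph receptors 6 rose and 5 fell, near the shares of all genes. Epha4 was at 230.1, 227 and 218 CPM in ground and 40.0, 55.1 and 54.5 CPM in EPL (log2 fold change -2.18 ± 0.135 SE, edgeR adjusted p = 5.25e-12), and Efnb2 and Epha1 rose by 2.43 and 3.25.

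Genes of MHC class I and the interferon response counted 10 that rose and 10 that fell of 25. H2-K1, a classical heavy chain, was at 4.82, 3.43 and 4.46 CPM in ground and 28.6, 18.5 and 20.04 CPM in EPL (log2 fold change 2.39 ± 0.154 SE, edgeR adjusted p = 1.07e-11), and the peptide transporter genes Tap1 and Tap2 rose by 1.24 and 3.79. B2m, the shared light chain, was at 16.6, 15.6 and 15.3 CPM in ground and 11.9, 6.09 and 5.31 CPM in EPL and fell (log2 fold change -1.03 ± 0.186 SE, edgeR adjusted p = 6.14e-05). Ifitm3 and Oas1a fell by 1.74 and 2.92 on the log2 scale, and Bst2 rose by 1.70. H2-K1, Tap1 and Tap2 thus rose while the light chain fell.

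Markers of other cell types were checked in the same libraries. Of 19 markers of the primitive endoderm 12 were higher in EPL and 3 lower. Lrp2 (megalin) was at 10.4, 10.1 and 8.81 CPM in ground and 66.5, 115 and 117 CPM in EPL (log2 fold change 3.35 ± 0.285 SE, edgeR adjusted p = 1.16e-09), whereas the defining factors Gata4, Gata6, Sox17 and Sox7 were at 2.71 ± 0.844, 1.70 ± 1.11, 0.653 ± 0.305 and 2.12 ± 0.471 CPM in EPL. Gata6 was at 0.473, 0.221 and 0.163 CPM in ground and 0.472, 2.62 and 1.99 CPM in EPL (log2 fold change 2.51 ± 0.499 SE, edgeR adjusted p = 1.86e-04), and Sox17 did not pass the test (0.72 ± 0.412; without ground replicate 1 1.27, adjusted p = 0.0332). Ttr had no count in either group. The summed level of the list, set mostly by Lamc1 and Sparc, was 1947 to 2117 CPM in ground and 919 to 1326 CPM in EPL. Col4a1, Col4a2 and Lamb1, whose rises are given above, are members of this list and are counted in its 12. They are therefore not a separate observation.

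Trophoblast markers fell in 4 of 9 cases and rose in 3, with summed levels of 127.8 to 137.9 CPM in ground and 70.73 to 98.08 CPM in EPL. Tead4 fell by 2.09 and Tfap2a by 2.07 on the log2 scale, and the defining Cdx2 was at 0.462 ± 0.189 CPM in EPL. Elf5 was below the filter. Of 13 neurectoderm markers 6 rose and 4 fell, with levels from 107.9 to 111.9 CPM in sum in ground to 151.4 to 157.7 CPM in EPL. Pax6 was at 0.426, 0.387 and 0.109 CPM in ground and 11.6, 16.4 and 14.8 CPM in EPL (log2 fold change 5.49 ± 0.311 SE, edgeR adjusted p = 1.18e-12), and Neurod1 and Map2 rose by 2.82 and 3.02. Sox1, the earliest definitive marker of the neural plate, went the other way, at 7.99, 10.1 and 7.72 CPM in ground and 1.30, 2.23 and 2.72 CPM in EPL (log2 fold change -2.04 ± 0.213 SE, edgeR adjusted p = 3.02e-08), and Sox21 fell by 3.12. Neurog1, Neurog2, Olig2 and Hes5 were below the filter.

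Fibroblast markers totalled 16.69 to 18.87 CPM in ground and 20.49 to 23.84 CPM in EPL. Of 18, 5 were higher (3 without ground replicate 1) and 4 lower, near the shares of all genes. Col1a1 was at 0.620 ± 0.232 CPM in EPL and Col3a1, Fap, Prrx1 and S100a4 had no count there. Markers of the 2-cell-like state rose in 9 of 14 cases and none fell, and those that rose had mean levels below 3 CPM. The summed level of the list, set almost wholly by Eif1a, which was not called, was 307.9 to 327 CPM in ground and 308.9 to 326.6 CPM in EPL. Zscan4c was at 0.426, 0.939 and 0.380 CPM in ground and 0.886, 2.51 and 2.96 CPM in EPL (log2 fold change 1.87 ± 0.365 SE, edgeR adjusted p = 1.51e-04). The Zscan4 and Tcstv genes are near-identical copies, so their counts are uncertain. With the 6 A2 libraries alone, where the filter kept fewer genes (14552), 5 of the 14 were called. Of 21 germline genes, 10 rose and 6 fell: Sycp3, Tdrd1 and Mael rose by 2.91, 2.80 and 2.26, and Dazl was at 25.9, 24.2 and 22.7 CPM in ground and 4.90, 6.81 and 8.57 CPM in EPL (log2 fold change -1.85 ± 0.156 SE, edgeR adjusted p = 1.07e-09).

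The same conversion was carried out in D3, which allowed the A2 change to be set against that of a second line with no shared library. Of the genes called in A2, 7066 were also called in D3 in the same direction and 164 in the opposite direction. Across the 16575 genes the 2 sets of changes had a Pearson r of 0.853 and a Spearman rho of 0.801, as a description, since genes are not independent. The difference between the lines was called for 2206 genes (13.3%), with the A2 change above that of D3 for 1004 (6.06%) and below for 1202 (7.25%). The lines can also differ in other ways that the labels do not give.

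**Figure D5:**
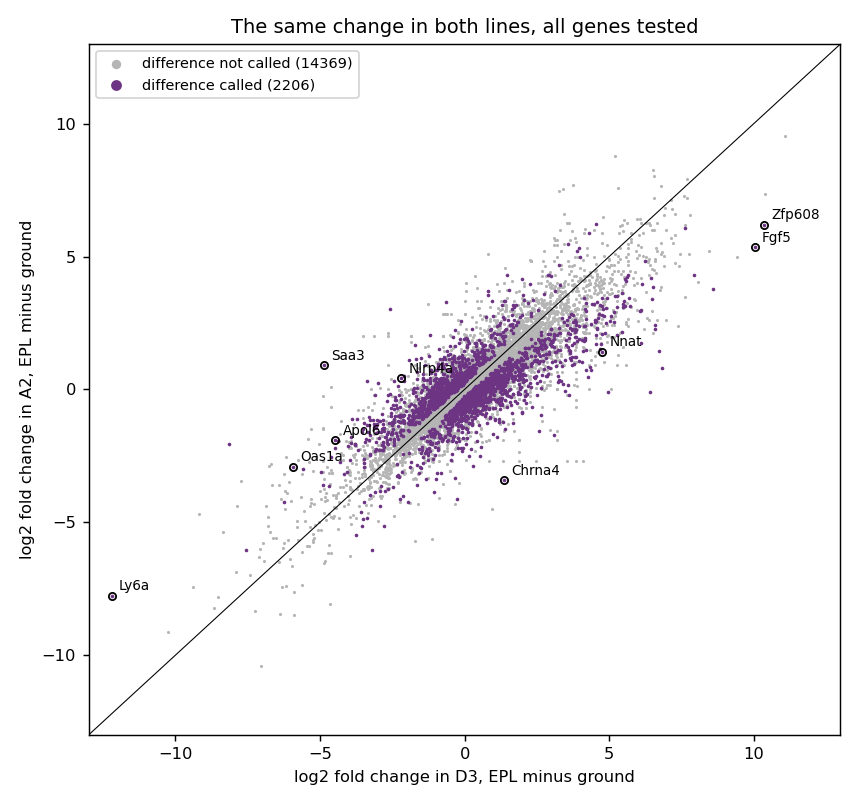
Log2 fold change from ground to EPL in A2 (vertical axis) against that in D3 (horizontal axis) for 16575 genes; purple points are the 2206 whose change differed between the lines, grey points the rest, and the line marks equality. Most points follow the line, Chrna4 lies below it with a fall in A2 and a rise in D3, and Fgf5 and Zfp608 lie below it with a larger rise in D3.

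Formative genes rose in both lines, and the sizes differed for some. Otx2 rose by 5.33 ± 0.147 in A2, from 1.48 ± 0.337 CPM, and by 3.95 ± 0.118 in D3, from 7.005 ± 0.778 CPM (difference of the log2 changes 1.39 ± 0.202 SE, edgeR adjusted p = 7.08e-05). In EPL cells Otx2 was at 59.2 ± 2.47 CPM in A2 and 108 ± 8.27 CPM in D3, so the larger A2 change started from a lower ground level. Fgf5 reached 4.51 ± 0.845 CPM in A2 EPL and 24.4 ± 1.22 CPM in D3 EPL (difference of the log2 changes -4.69 ± 1.49 SE, edgeR adjusted p = 0.0394), and its level in D3 ground was 0.0155 ± 0.0268 CPM, so the difference rests on few counts. It was not called without A2 ground replicate 1 (-3.82, adjusted p = 0.298), 2 or 3 or A2 EPL replicate 2 or 3. Zfp608, a zinc finger gene, behaved similarly, at 9.37 ± 2.42 CPM in A2 EPL and 30.3 ± 3.27 CPM in D3 EPL (difference of the log2 changes -4.15 ± 1.30 SE, edgeR adjusted p = 0.0369). The difference of Zfp608 was not called without A2 ground replicate 1 (-3.07, adjusted p = 0.336) or 2, or with a replicate block (-4.15, adjusted p = 0.0617). Pou3f1 did not differ between the lines beyond the threshold (difference of the log2 changes -0.084 ± 0.441 SE, edgeR adjusted p = 0.945).

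Several pluripotency factors fell less in A2. Nanog changed by -1.52 ± 0.0857 in A2 and -2.21 ± 0.0878 in D3 (difference of the log2 changes 0.70 ± 0.119 SE, edgeR adjusted p = 3.49e-04), and Zfp42 changed by -0.39 ± 0.0913 and -0.95 ± 0.0921 (difference of the log2 changes 0.56 ± 0.129 SE, edgeR adjusted p = 0.00492). Of the 20 naive genes 10 differed between the lines, against 13.3% of all genes tested. Such a share was not particular to this list. The difference was called for 13 of 25 genes of the ATF4 list and 10 of 20 aminoacyl-tRNA synthetases. Klf2 did not pass the test in A2 and changed by -1.03 ± 0.127 in D3 (difference of the log2 changes 0.85 ± 0.179 SE, edgeR adjusted p = 0.00246). Tfcp2l1, Tbx3 and Klf4 were not among the 10 naive genes that differed.

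Chrna4, a nicotinic receptor subunit, was at 7.16 ± 0.0889 CPM in A2 ground, 0.657 ± 0.160 in A2 EPL, 0.593 ± 0.233 in D3 ground and 1.52 ± 0.321 in D3 EPL (difference of the log2 changes -4.78 ± 0.458 SE, edgeR adjusted p = 4.97e-07). The imprinted genes Nnat and H19 rose less in A2. Nnat reached 3.25 ± 0.943 CPM in A2 EPL and 38.2 ± 1.69 CPM in D3 EPL (difference of the log2 changes -3.33 ± 0.386 SE, edgeR adjusted p = 5.12e-06). H19 reached 2.29 ± 0.394 CPM in A2 EPL and 11.8 ± 0.981 CPM in D3 EPL (difference of the log2 changes -3.17 ± 0.570 SE, edgeR adjusted p = 5.75e-04). Saa3, a serum amyloid gene, was at 10.4 ± 0.804 CPM in D3 ground and 0.359 ± 0.0908 CPM in D3 EPL but at or below 0.2 CPM in A2, and Arhgap6, a RhoGAP, had 3 counts in A2 ground and 12 in A2 EPL against 77.1 ± 8.68 CPM in D3 ground, a difference not called without A2 EPL replicate 2 (2.86, adjusted p = 0.0835). Ly6a and Oas1a, both interferon-responsive, fell in both lines and more in D3, with changes of -2.92 ± 0.127 in A2 and -5.92 ± 0.158 in D3 for Oas1a (difference of the log2 changes 3.003 ± 0.221 SE, edgeR adjusted p = 9.92e-09). Nlrp4a, a member of a multigene family, was at 8.42, 8.46 and 9.19 CPM in ground and 11.6, 11.2 and 11.9 CPM in EPL in A2 and changed by -2.19 ± 0.179 in D3 (difference of the log2 changes 2.61 ± 0.234 SE, edgeR adjusted p = 1.82e-07). Apol6 fell by 1.92 in A2, and Ckb, the creatine kinase above, changed by -1.97 ± 0.0734 in A2 and -3.45 ± 0.0781 in D3 (difference of the log2 changes 1.49 ± 0.101 SE, edgeR adjusted p = 3.03e-09).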

How the data were processed

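RNA-seq libraries of A2 and D3 cells were counted per gene, and the deposited values are whole-number counts for each library. The authors' tools were HISAT2, SAMtools and featureCounts on GRCm38, per the submitters' processing notes. For these tools, versions and options were not given in the sources used here. Libraries were made with a kit that does not mark strand, per the labels' protocols, so overlapping antisense genes cannot be told apart. Gene names and positions are those of the deposited count table and its matching GRCm38 annotation.

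Counts of all 21 libraries were fitted together, with 1 mean per group, by edgeR 4.0.16 (R 4.3.3) with TMM factors and its quasi-likelihood test. The filter on low counts (filterByExpr, a minimum count of 10 and total of 15) kept 16575 genes, and p-values were adjusted by Benjamini-Hochberg over all of them with a threshold of 0.05. The SE of a log2 fold change is its size divided by the square root of the F statistic. Contrasts were A2 EPL minus A2 ground, A2 EPL minus A2 naive, and the difference between the A2 and D3 changes. Folds against a group without counts use 3 counts over the group, and ratios with 1 to 3 counts carry an exact 95% interval; both cover counting error only. Replicates differed by more than sampling noise, so each was counted as 1 sample.

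The 6 libraries and all gene lists were chosen with earlier results of these data known. Genes were named by this rule: the 12 largest rises and falls among called genes of at least 5 CPM with no overlap, the 6 largest gains and losses in CPM, the 4 called members of each list with the largest change plus members needed to account for the list, a panel of pluripotency genes, and the 6 largest differences between the lines on each side. The scripts were tested on simulated data. Alternatives were RLE factors, total-count scaling, no filter and a stricter filter, DESeq2 1.42.0, a fit of only the groups compared, a replicate block, and leaving out each A2 library. Single values of some list members are not reported here.

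Replicate numbers are shared between groups, and the series calls its samples paired without saying how. Same-numbered ground and EPL libraries had correlations of deviations from the group means of -0.0217, 0.0556 and -0.0717, so the numbers were not taken to pair the libraries. Libraries of unlike number had correlations from -0.112 to 0.133. With 3 libraries a group, these values cannot exclude a pairing.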

Additional observations from a re-analysis of the deposited data

Results flagged for a closer look

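The change from ground to EPL differed between A2 and D3, by the interaction test in edgeR and by at least 2-fold, for 30 of 211 genes named by the rule or compared between the lines. Some of the 211 were named because they were called in this same test, so the count describes a chosen set and not all genes. At any size, 65 of the 211 differed, against 13.3% of all genes tested. Of the 30, 26 were called in the same direction in both lines and 3 in opposite directions (Chrna4, Arhgap6 and Nlrp4a). The A2 rise of Arhgap6, from 3 counts to 12, was not called without ground replicate 1, 2 or 3 or EPL replicate 2 or 3. That of Nlrp4a was not called without ground replicate 1 (edgeR adjusted p = 0.0527) or 2 (0.0582). Values are the A2 change minus the D3 change on the log2 scale.

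The A2 change lay above that of D3 for 15 genes. The difference was 5.78 for Saa3, 4.45 for Ly6a, 3.23 for Arhgap6, 3.003 for Oas1a, 2.61 for Nlrp4a, 2.56 for Apol6, 1.93 for Cdx2 and 1.71 for Tfap2a. It was 1.66 for Coch, 1.61 for Lef1, 1.51 for Crxos, 1.49 for Ckb, 1.39 for Otx2, 1.11 for Itgb7 and 1.10 for Itga9.

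The A2 change lay below that of D3 for 15 genes. The difference was -4.78 for Chrna4, -4.69 for Fgf5, -4.15 for Zfp608, -3.62 for Fam131b, -3.33 for Nnat, -3.17 for H19, -2.04 for Mmp2 and -1.76 for Psmb9. It was -1.53 for Vrtn, -1.50 for Slc16a3, -1.44 for Fst, -1.40 for Pmaip1, -1.24 for Lamb1, -1.10 for Efnb2 and -1.03 for P4ha2.

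The differences of Fgf5, Zfp608 and Fam131b rest on D3 ground libraries with almost no counts, that of Ly6a on D3 EPL libraries with almost none, and those of Saa3 and Arhgap6 on A2 libraries with few counts. Without A2 ground replicate 1 the difference of Fam131b was -2.14 (edgeR adjusted p = 0.578), and with a replicate block it was -3.60 (0.0559).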

How the results depend on the processing

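The counts of genes called higher, lower and at least 2-fold changed, and of genes that differed between the lines, stayed within 1.5 times their reported values under every alternative. Leaving out 1 library gave 4127 to 4412 genes higher and 3978 to 4314 lower, against 4504 and 4580. Total-count scaling gave 5049 and 4077, so that 55.3% of the calls were higher against 49.6%. With a replicate block 4403 and 4460 genes were called, 8793 of the 8863 also called without it. Whether the numbers pair the libraries cannot be told from the correlations (-0.0217, 0.0556 and -0.0717). The block moved no count of a list by more than 1.5 times. With it mt-Cytb (adjusted p = 0.0565) and the differences between the lines of Zfp608 (0.0617) and Fam131b (0.0559) were not called, nor were the changes of Tcstv1 (0.059) and Arhgap6 (0.069), and Vim was called (0.0406). It changed no other call of a named gene.

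Counts of list members moved more in the following cases, where the cause was not tested. Total-count scaling left 0 ERK feedback regulators lower, and called 6 tricarboxylic acid cycle, 1 respiratory chain and 2 cytosolic ribosomal protein genes higher and 3 of the last lower. Without the filter on low counts, 2 aminoacyl-tRNA synthetases were lower, 1 respiratory chain and 2 ribosomal protein genes were higher and 12 ribosomal protein genes lower. With only the groups compared in the fit, 3 primed epiblast, 4 tricarboxylic acid cycle, 2 respiratory chain, 2 ribosomal protein, 4 p53 target and 5 2-cell-like genes were higher, and 11 ribosomal protein and 7 Hox genes lower. In that fit the filter was applied anew and kept 14552 genes, against 16575. Members that it left out could not be called there.

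Leaving out 1 library at a time gave 1 to 3 general pluripotency factors, 0 to 2 ERK feedback regulators, 1 to 2 Notch genes, 2 to 4 aminoacyl-tRNA synthetases, 18 to 30 respiratory chain genes, 3 to 11 mitochondrially encoded genes, 0 to 6 ribosomal proteins and 5 to 7 proteasome subunits lower. It gave 7 to 11 aminoacyl-tRNA synthetases, 0 to 1 ribosomal proteins, 7 to 14 mitochondrial ribosomal proteins, 5 to 8 proteasome subunits and 3 to 5 fibroblast markers higher.

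Of 359 genes with values, 22 lost their call in some alternative and 11 gained one, and 13 changed sign, all of them genes that were not called. Aldh18a1 was at 0.021 with RLE factors, 0.057 with total-count scaling, 0.024 with no filter, 0.0041 with the stricter filter, 0.021 with DESeq2 and 0.015 with only the groups compared. With total-count scaling Cs was at 0.0085, Ddit3 at 0.0022 and Gapdh at 0.019. Leaving out 1 library gave -0.0377 to 0.063 for Aldh18a1, -0.025 to 0.13 for Aldoa, -0.0824 to 0.0067 for Cs, -0.13 to 0.068 for Ddit3, -0.17 to 0.26 for Fos, -0.059 to 0.0038 for Gapdh, -0.043 to 0.24 for Id3 and -0.0487 to 0.092 for Idh3a. It gave -0.27 to 0.27 for Insig1, -0.54 to 0.00804 for Lefty2, -0.14 to 0.035 for Srf, -0.29 to 0.0070 for Tcf7 and -0.039 to 0.087 for Trp53, and -0.37 to 0.12 for the difference of Pou3f1 between the lines. Depth limits genes near 0 counts. Folds against 0 to 3 counts over an A2 group are given as bounds or ratios. The log2 changes of Bhmt, Bhmt2 and Nkx1-2 (5 counts in EPL), of Dll1 and Tap2 (5 in ground) and of Fgf5, Bcl11a and Enpp2 (6 in ground) are fitted values that depend on the prior count, as are the differences between the lines of Fgf5, Zfp608, Fam131b, Saa3 and Arhgap6.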
